A study of Homo sapiens with 4 samples.

Results

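The nuclear-encoded subunits of oxidative phosphorylation (OXPHOS) were compared between SAS cells with and without knockdown of STAU1. SAS is a cell line from a human squamous carcinoma of the tongue. Members were the protein-coding genes whose symbol starts with NDUFA, NDUFB, NDUFC, NDUFS, NDUFV, UQCR, COX4I, COX5, COX6, COX7, COX8 or ATP5, together with SDHA, SDHB, SDHC, SDHD and CYC1, and without the NDUFAF assembly factors. This gave 91 genes among 66963 in the table, of which 19916 are protein-coding: 38 of complex I, 4 of complex II, 10 of complex III, 19 of complex IV and 20 of complex V. NDUFA4 and NDUFA4L2 were placed with complex IV, since the NDUFA4 protein is a subunit of cytochrome c oxidase.

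The study asked how circular RNA is formed from the SNX5 gene, and STAU1, a double-stranded RNA-binding protein, was depleted in that context. Total RNA was taken from 2 control libraries (Ctrl), infected with a virus carrying an shRNA against luciferase (shLuc), and from 2 libraries infected with a virus carrying an shRNA against STAU1 (shSTAU1). All 4 libraries carry the genotype label WT and the same viral treatment, and a second shRNA against STAU1 was not analysed here. The sample labels name C3H 10T1/2, a mouse fibroblast line, while the organism is given as human and the growth protocol as SAS. Reads were captured on exons and counted per gene, and levels are given below as CPM (counts relative to the library size, scaled by edgeR's TMM method).

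Each library held 32206655 to 36301574 counts. STAU1 itself was at 249 and 251 CPM in the Ctrl libraries and at 41.6 and 41.5 CPM in the shSTAU1 libraries (log2 fold change -2.59 ± 0.13 SE). Summed over 10 squamous epithelial markers, the libraries held 8614 to 12490 CPM, led by KRT5. The 8 fibroblast markers summed to 10.2 to 22.8 CPM, with THY1 at 0 reads, the 5 leukocyte markers to at most 1.15 CPM and the 3 endothelial markers to 7.44 to 18.0 CPM. The fibroblast sum, mostly COL1A1, was higher in both Ctrl libraries (17.9 and 22.8 CPM) than in both shSTAU1 libraries (11.1 and 10.2 CPM). COL1A2 went the other way, from 1.19 and 1.68 CPM in Ctrl to 2.15 and 3.62 CPM in shSTAU1. The squamous sum (9135 and 8614 CPM in Ctrl, 12490 and 9507 CPM in shSTAU1) was higher in both shSTAU1 libraries, with 7 markers above a log2 fold change of 0 and 3 below. So was the leukocyte sum, from 0.27 and 0.21 CPM to 1.15 and 0.74 CPM. The part of these differences in the results below was not tested. No source states that the 2 libraries of a group came from separate cultures, so p-values measure the spread between these libraries, which may be technical.

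OXPHOS passes electrons from NADH and succinate through complexes I to IV of the inner mitochondrial membrane to oxygen, and the proton gradient this builds drives complex V, the ATP synthase. Most subunits are nuclear genes whose proteins are made in the cytosol and imported, whereas a small core of complexes I, III, IV and V is read from the mitochondrial genome. Carcinoma cells commonly run this pathway beside a high rate of glycolysis, and NRF1, the ETS factor GABP and YY1 are known activators of many of the nuclear genes.

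Most of the measured subunits were higher in the shSTAU1 libraries, each by a modest amount. Of the 75 members with enough counts to be tested, 65 had a log2 fold change above 0 (86.7%), against 50.4% of the 14303 genes tested. Their median log2 fold change was 0.35, with a range from -0.97 to 0.86, while the median of all genes tested was 0.006. With the trend of counts with transcript length and GC content removed, the members' median was 0.17. Both shSTAU1 libraries lay above both Ctrl libraries for 58 members, against 28.5% of all genes tested, and below them for 5 members, against 28.0%. The groups overlapped for the other 12. In edgeR's quasi-likelihood test, 5 members passed an adjusted p of 0.05 (2.60% of all genes did so). Of these 4 were higher (1.13% of all genes), namely NDUFA1, NDUFB1, UQCRB and ATP5ME, and 1 was lower (1.48%). At an unadjusted p under 0.05, 35 members were higher (12.9% of all genes) and 2 were lower (11.6%). In bulk RNA, fewer cells of a type and less RNA per cell cannot be told apart. In either direction 24.5% of all genes had such a p. DESeq2, which called 10.1% of all genes and 5.40% as higher, called 17 members, 16 of them higher. No member was called without Ctrl 1 or without Ctrl 2, where 0.00% and 0.427% of all genes were called. Without shSTAU1 1, 33 members were called (18.5% of all genes), and without shSTAU1 2, 13 (14.5%).

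**Figure D1:**
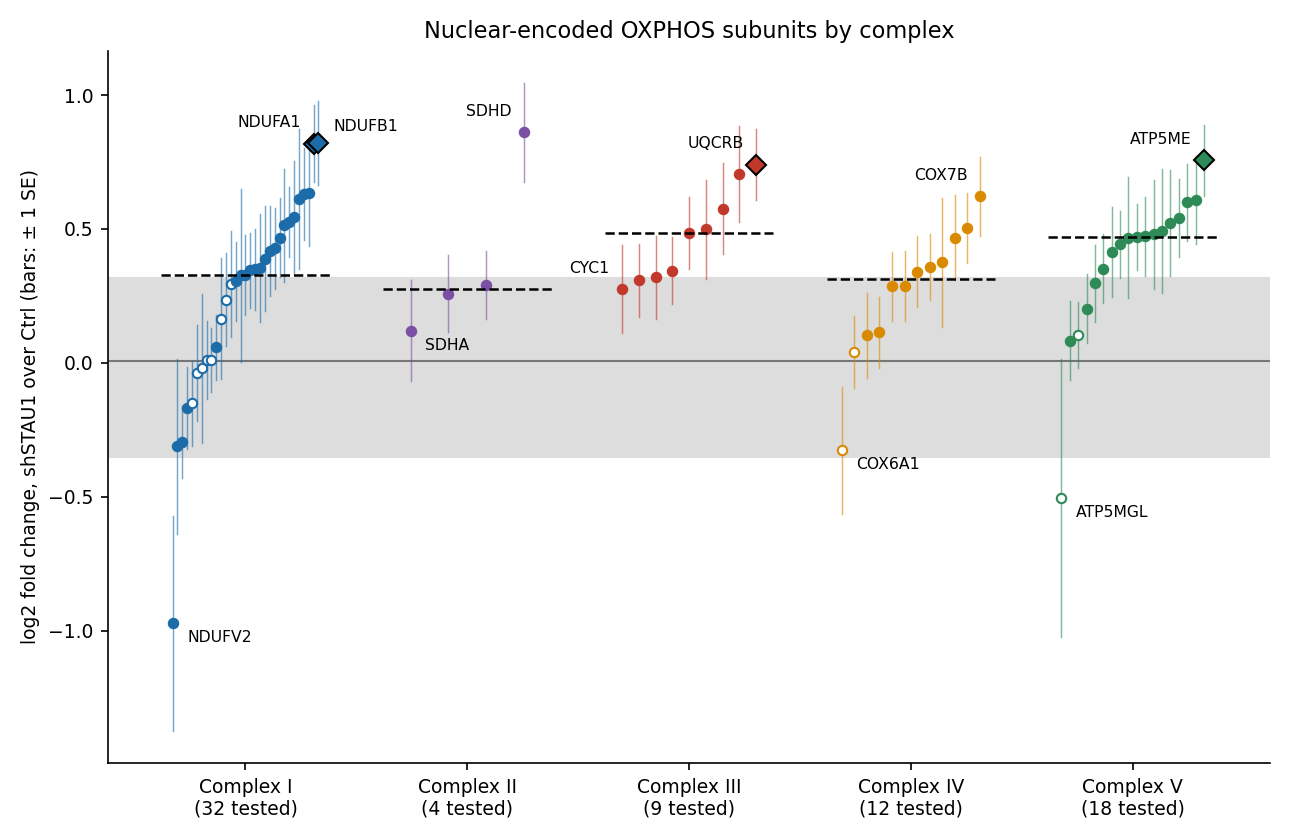
Log2 fold change (shSTAU1 over Ctrl, y axis) of tested subunits, ordered by value within each complex (x axis), with bars of ± 1 SE, diamonds for members past an adjusted p of 0.05, open symbols where the groups overlapped, a dashed line at the median of each complex, and a line and grey band for the median and interquartile range of all genes tested. All 9 members of complex III and all 4 of complex II lie above 0, and most of the members below 0 belong to complex I.

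Summed over all 91 members, the level was 5225 and 5153 CPM in the Ctrl libraries and 5993 and 6687 CPM in the shSTAU1 libraries, a ratio of the means of 1.22. The groups did not overlap, and shSTAU1 2 was the highest. The summed level of complex III went from 671 and 676 CPM to 903 and 1007 CPM (ratio 1.42), and that of complex V from 1703 and 1592 CPM to 2058 and 2231 CPM (ratio 1.30). Complex IV went from 612 and 600 CPM to 746 and 754 CPM (ratio 1.24), and complex II from 287 and 270 CPM to 327 and 360 CPM (ratio 1.23). Only in complex I did the summed levels overlap, with 1953 and 2016 CPM in Ctrl against 1959 and 2336 CPM in shSTAU1. With 2 libraries against 2, the smallest two-sided p that an exact permutation test of such a sum can give is 0.333, so these sums are descriptions.

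The library shSTAU1 2 stood further from Ctrl than shSTAU1 1. It was above shSTAU1 1 for 63 of the 75 tested members (84.0%), against 49.4% of all genes tested, and for 30 of the 32 members of complex I. Over the 75 members the median deviation from a gene's mean over the libraries was -0.17 in both Ctrl libraries, 0.09 in shSTAU1 1 and 0.23 in shSTAU1 2 on the log2 CPM scale. In complex IV the shSTAU1 libraries were close to each other, at 0.15 and 0.16. In complex I they were not, at 0.03 and 0.26.

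**Figure D2:**
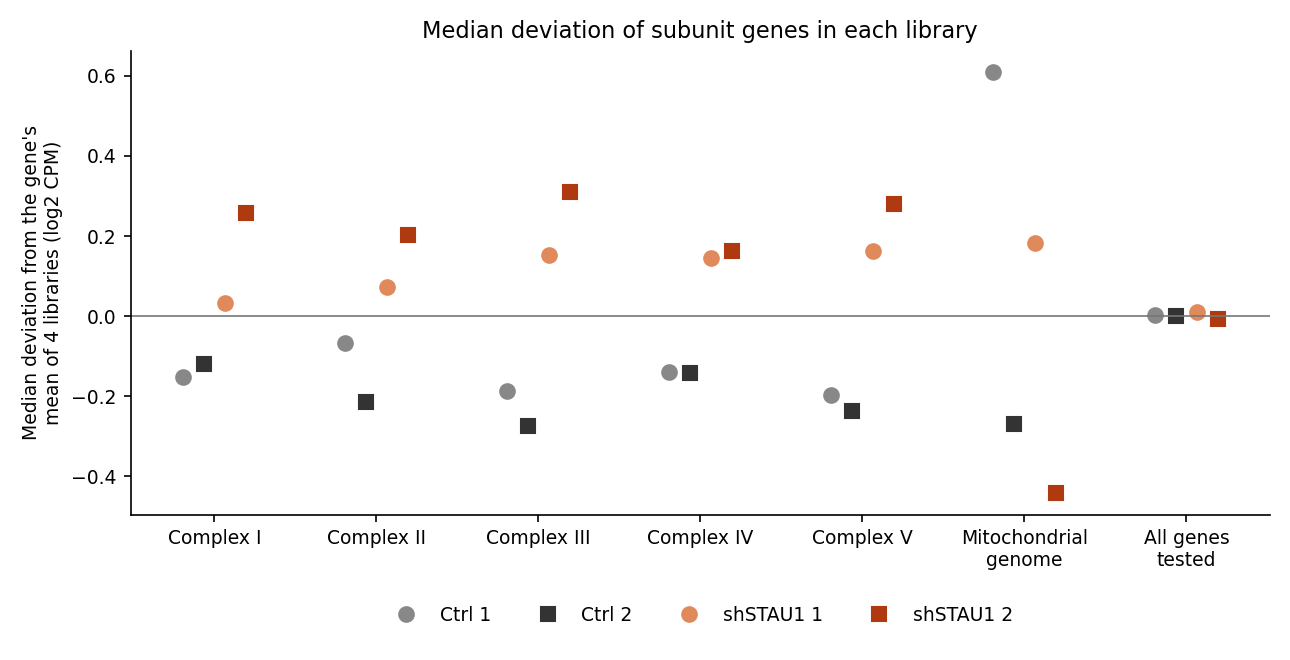
Median deviation of the tested genes of each complex from their mean over the 4 libraries (y axis, log2 CPM) for each library, with the 13 protein genes of the mitochondrial genome and all genes tested at the right. In every complex both shSTAU1 libraries lie above 0 and both Ctrl libraries below 0, while the mitochondrial genome has Ctrl 1 at 0.61 and shSTAU1 2 at -0.44.

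Complex I, the NADH dehydrogenase, is the entry point of electrons from NADH. Of its 32 tested members 24 had a log2 fold change above 0, with a median of 0.33 that was 0.18 without shSTAU1 2 and 0.05 with the length and GC correction. NDUFA1, a small accessory subunit of the membrane arm, was at 40.1 and 36.4 CPM in Ctrl and at 64.5 and 70.4 CPM in shSTAU1. It rose by a log2 fold change of 0.82 ± 0.14 (SE, edgeR adjusted p = 0.0360), with no overlap of the groups, and lies at chrX:119871487-119876662 (GRCh38, plus strand). NDUFB1, another small accessory subunit of the membrane arm, was at 36.8 and 34.6 CPM in Ctrl and at 56.7 and 69.3 CPM in shSTAU1. It rose by 0.82 ± 0.16 (SE, edgeR adjusted p = 0.0427) on the log2 scale, again without overlap, and lies at chr14:92116122-92121917 (minus strand).

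Among the 26 tested accessory members of complex I, 21 were above 0, with a median log2 fold change of 0.34. Core subunits bind NADH, flavin and the iron-sulfur clusters. NDUFV1, the flavin-bearing subunit, was at 239 and 222 CPM in Ctrl and at 230 and 235 CPM in shSTAU1. Its groups overlapped, with a log2 fold change of 0.01 ± 0.12 (SE). NDUFS3 was at 68.3 and 73.1 CPM in Ctrl and at 74.3 and 111 CPM in shSTAU1, a log2 fold change of 0.39 that was 0.06 without shSTAU1 2. NDUFS7 and NDUFS8, which carry iron-sulfur clusters, had log2 fold changes of -0.17 and 0.35, and neither passed the test. Exons of NDUFV1, NDUFS3 and NDUFS8 overlap another gene on the same strand, so their counts are uncertain.

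NDUFV2, an iron-sulfur subunit at the NADH site, had the lowest fold change of the 75 tested members, at 1.75 and 2.50 CPM in Ctrl and at 1.03 and 1.13 CPM in shSTAU1. Its log2 fold change of -0.97 ± 0.40 (SE) did not pass the test (edgeR adjusted p = 0.190). Only 217 counts fell on it over all libraries, fewer than the 1285 on its processed pseudogene NDUFV2P1, which was at 5.65 and 8.46 CPM in Ctrl and at 11.5 and 11.9 CPM in shSTAU1. The member was thus lower and the pseudogene higher in shSTAU1, and how reads were divided between them was not tested. NDUFS1, the largest core subunit, had no read in any library.

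Among the other accessory subunits of complex I, NDUFB11 (0.63), NDUFB10 (0.63) and NDUFB3 (0.61) had the next highest log2 fold changes, and none of them passed the test. NDUFS4 had a log2 fold change of -0.30, from 95.8 and 90.4 CPM in Ctrl to 71.6 and 80.1 CPM in shSTAU1. The groups did not overlap, and the difference did not pass the test (edgeR adjusted p = 0.223). With the length and GC correction the log2 fold change of NDUFS4 was -0.63, which also missed the threshold (edgeR adjusted p = 0.0503). NDUFB9 was at 394 and 462 CPM in Ctrl and at 338 and 433 CPM in shSTAU1, with overlapping groups.

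Complex II, succinate dehydrogenase, is the one complex with no subunit from the mitochondrial genome. All 4 members had both shSTAU1 libraries above both Ctrl libraries (28.5% of all genes tested), and the median log2 fold change was 0.27. SDHD, a membrane anchor, was at 9.78 and 10.7 CPM in Ctrl and at 19.1 and 18.1 CPM in shSTAU1. Its log2 fold change of 0.86 ± 0.18 (SE) was the highest of all 75 tested members, and it missed the threshold in edgeR (adjusted p = 0.0553) while DESeq2 called it (adjusted p = 0.00602). It lies at chr11:112086773-112120013 (plus strand), and 11.2% of its exon bases overlap another gene on the same strand. SDHB, the iron-sulfur subunit, was at 200 and 192 CPM in Ctrl and at 225 and 254 CPM in shSTAU1, without overlap (log2 fold change 0.29, edgeR adjusted p = 0.210). SDHC, the other anchor, had a log2 fold change of 0.26. SDHA, the flavoprotein, had 0.12 from 1755 counts in all, against 6901 on its pseudogene SDHAP1 and 2741 on SDHAP4, and those pseudogenes had log2 fold changes of -0.64 and -0.73. No member of complex II was called in edgeR, and 1 had an unadjusted p under 0.05 (24.5% of all genes). DESeq2 called 1, SDHD (10.1% of all genes).

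Complex III, the cytochrome bc1 complex, passes electrons from ubiquinol to cytochrome c. All 9 tested members had both shSTAU1 libraries above both Ctrl libraries, against 28.5% of all genes tested. Their log2 fold changes ran from 0.27 to 0.74, with a median of 0.48 (0.25 with the length and GC correction). UQCRB, a small subunit at the quinone site, was at 197 and 225 CPM in Ctrl and at 334 and 372 CPM in shSTAU1. It rose by 0.74 ± 0.13 (SE, edgeR adjusted p = 0.0375) on the log2 scale without overlap, and lies at chr8:96225920-96235634 (minus strand). UQCRFS1, the Rieske iron-sulfur protein, was at 34.3 and 31.2 CPM in Ctrl and at 42.8 and 54.8 CPM in shSTAU1 (log2 fold change 0.58, edgeR adjusted p = 0.0976). CYC1, cytochrome c1, was at 67.7 and 72.4 CPM in Ctrl and at 73.2 and 96.3 CPM in shSTAU1, the smallest log2 fold change of the complex at 0.27. That value was 0.053 without shSTAU1 2 and 0.47 without shSTAU1 1, where CYC1 was called (edgeR adjusted p = 0.0276). The core proteins UQCRC1 and UQCRC2 had 0.31 and 0.34. UQCRH, the hinge protein, and its coding copy UQCRHL had 0.48 and 0.50, and reads may be split between this pair. UQCR10 had 0.70, from 15.7 and 15.8 CPM to 23.1 and 28.3 CPM, with an edgeR adjusted p of 0.0737.

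Complex IV, cytochrome c oxidase, had 11 of 12 tested members above 0 and a median log2 fold change of 0.31 (0.08 with the length and GC correction). No member was called in edgeR, 5 had an unadjusted p under 0.05 (24.5% of all genes), and DESeq2 called 2 (10.1%). COX7B, a small membrane subunit, was at 31.9 and 29.4 CPM in Ctrl and at 44.8 and 49.5 CPM in shSTAU1. Its groups did not overlap, and its log2 fold change of 0.62 ± 0.15 (SE) missed the threshold in edgeR (adjusted p = 0.0655). COX4I1 and COX5A, which surround the catalytic core, had log2 fold changes of 0.11 and 0.34, and COX5B had 0.04 with overlapping groups. NDUFA4 was at 119 and 126 CPM in Ctrl and at 154 and 161 CPM in shSTAU1, without overlap (log2 fold change 0.36, edgeR adjusted p = 0.132). COX6A1 was the one member of the complex below 0, at 10.6 and 13.4 CPM in Ctrl and at 8.19 and 10.9 CPM in shSTAU1. Its groups overlapped, and its processed pseudogene COX6A1P2 took 5029 counts against its own 1463.

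Several complex IV subunits exist as a widespread and a tissue-restricted isoform, and reads fell mainly on the widespread ones. COX4I2, COX6A2, COX7A1, COX7B2 and COX8C, isoforms known from lung, heart and muscle or testis, were listed at 0 in every library. COX6B2 had 2 counts and NDUFA4L2, a hypoxia-induced paralog, had 5 counts over all libraries. COX6B1 was at 78.4 to 99.5 CPM, COX7A2 at 50.2 to 62.5 CPM, COX7A2L at 22.5 to 25.8 CPM and COX8A at 4.64 to 6.34 CPM. For each of these partners both shSTAU1 libraries lay above both Ctrl libraries, as for 28.5% of all genes tested. Their log2 fold changes were 0.29, 0.29, 0.10 and 0.38, and none passed the test. With the length and GC correction these values were -0.031, -0.035, 0.038 and 0.066.

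Complex V, the ATP synthase, had 17 of 18 tested members above 0 and a median log2 fold change of 0.47 (0.28 with the length and GC correction). In 16 members both shSTAU1 libraries lay above both Ctrl libraries, against 28.5% of all genes tested. ATP5ME, a small subunit of the membrane part, was at 46.8 and 44.8 CPM in Ctrl and at 76.8 and 78.0 CPM in shSTAU1. It rose by 0.76 ± 0.13 (SE, edgeR adjusted p = 0.0360) on the log2 scale without overlap, and lies at chr4:672436-674338 (minus strand). ATP5F1B, the catalytic beta subunit, was at 536 and 506 CPM in Ctrl and at 688 and 757 CPM in shSTAU1. Its groups did not overlap, and its log2 fold change of 0.47 ± 0.12 (SE) missed the threshold in edgeR (adjusted p = 0.0766), while DESeq2 called it (adjusted p = 0.0292). ATP5F1A, the alpha subunit of the same ring, was at 308 and 281 CPM in Ctrl and at 306 and 327 CPM in shSTAU1, with overlapping groups and a log2 fold change of 0.10. ATP5F1C, the rotor's gamma subunit, had 0.44 and did not pass the test. The peripheral stalk members ATP5PB, ATP5PD, ATP5PF and ATP5PO had 0.30, 0.54, 0.61 and 0.49, and ATP5MC1, ATP5MC2 and ATP5MC3, which code for the c ring, had 0.48, 0.08 and 0.20. None of these passed the test, and with the length and GC correction ATP5MC2 was at -0.061. ATP5MGL, a copy of ATP5MG, lay below 0 at 129 counts in all, with overlapping groups. ATP5IF1, the inhibitor of the ATP synthase, had no read.

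**Figure D3:**
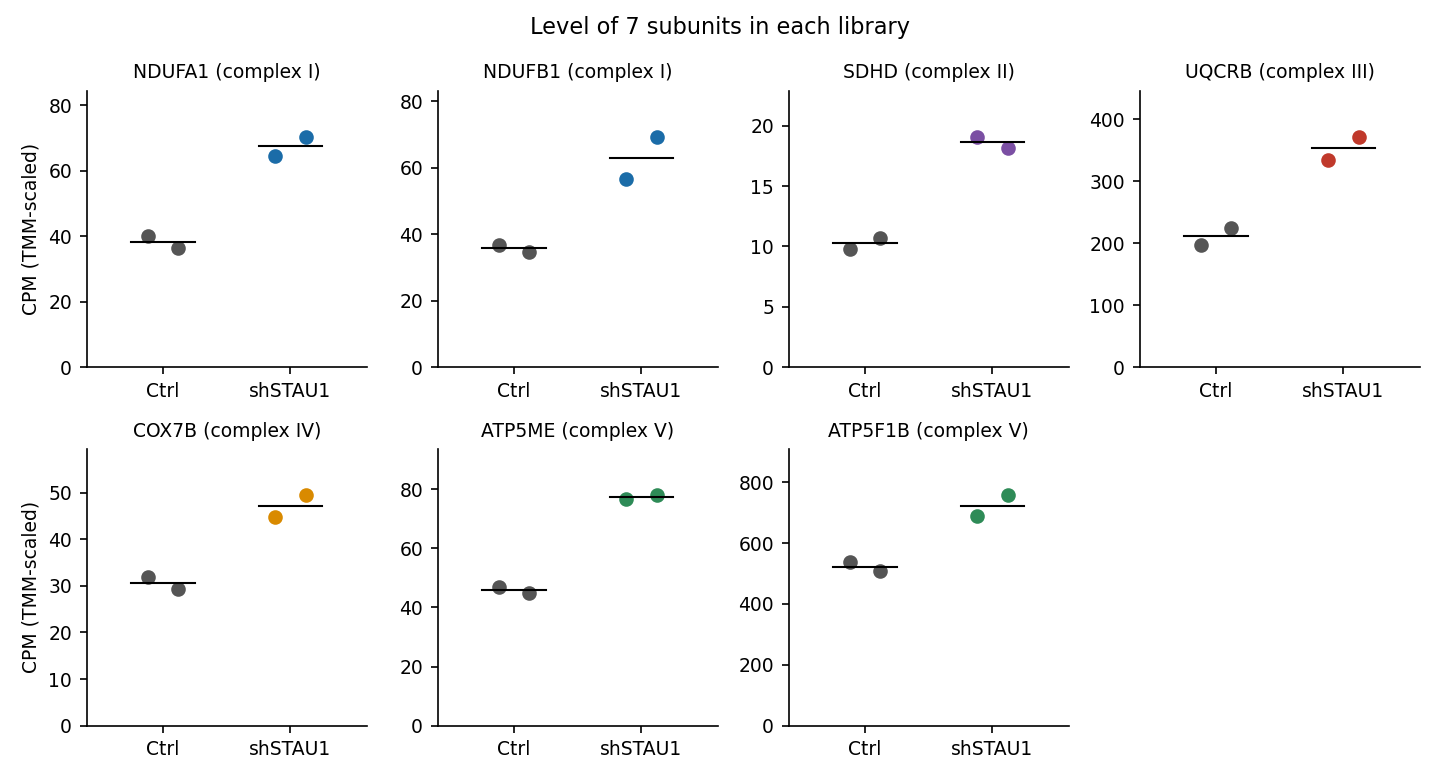
Level in CPM (y axis, from 0) of 7 subunits in each of the 2 Ctrl and 2 shSTAU1 libraries (points), with the mean of each group as a line. All 7 lie higher in shSTAU1, with no overlap in any panel. SDHD, COX7B and ATP5F1B missed the threshold in edgeR.

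Promoters of called members were read from RefSeq windows on GRCh38.p14 that run from 250 bases before to 50 after an annotated start. Of the 91 members 71 had a window, whereas UQCRB had none. The windows of NDUFA1, NDUFB1 and ATP5ME are shown because these genes rose, and that of SDHD because it had the highest fold change. Capitals mark the words searched on both strands, GCATGCG for NRF1, CCGGAAG for the ETS family and ATGGCGG for YY1.
NDUFA1 (chrX:119871582-119871881, plus strand): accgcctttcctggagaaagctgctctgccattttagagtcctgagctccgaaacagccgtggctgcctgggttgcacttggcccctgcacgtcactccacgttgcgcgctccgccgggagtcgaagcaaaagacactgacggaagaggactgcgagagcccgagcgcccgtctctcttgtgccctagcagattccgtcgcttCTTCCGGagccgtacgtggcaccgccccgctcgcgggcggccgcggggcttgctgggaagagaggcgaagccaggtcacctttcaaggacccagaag
NDUFB1 (chr14:92121657-92121956, minus strand): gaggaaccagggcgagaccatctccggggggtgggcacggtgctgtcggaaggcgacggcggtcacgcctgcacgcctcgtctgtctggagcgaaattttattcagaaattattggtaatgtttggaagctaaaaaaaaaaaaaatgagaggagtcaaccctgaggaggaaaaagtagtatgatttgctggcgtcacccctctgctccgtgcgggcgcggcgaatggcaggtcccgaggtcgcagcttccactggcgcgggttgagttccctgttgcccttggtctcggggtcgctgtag
ATP5ME (chr4:674227-674526, minus strand): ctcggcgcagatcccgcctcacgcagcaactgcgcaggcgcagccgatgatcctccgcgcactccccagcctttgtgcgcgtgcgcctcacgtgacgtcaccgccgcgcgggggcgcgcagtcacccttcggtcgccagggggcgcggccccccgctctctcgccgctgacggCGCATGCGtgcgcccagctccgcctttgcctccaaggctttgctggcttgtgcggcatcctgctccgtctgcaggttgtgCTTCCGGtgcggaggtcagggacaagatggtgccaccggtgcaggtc
SDHD (chr11:112086623-112086922, plus strand): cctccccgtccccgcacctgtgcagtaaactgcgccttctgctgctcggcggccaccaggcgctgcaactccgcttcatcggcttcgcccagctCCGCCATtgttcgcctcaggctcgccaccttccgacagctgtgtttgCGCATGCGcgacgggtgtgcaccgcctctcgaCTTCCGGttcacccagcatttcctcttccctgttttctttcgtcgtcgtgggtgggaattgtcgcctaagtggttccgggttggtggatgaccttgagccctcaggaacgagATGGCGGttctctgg

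The ETS word was in 3 of these 4 windows. NDUFA1 held it 47 bases before its start, counted to the first base of the word in the window, and NDUFB1 held no word. ATP5ME held the NRF1 word, which overlaps itself on the opposite strand, 77 bases before its start and the ETS word 3 bases after it. SDHD held all 3, with the NRF1 word 109 bases before the start and the YY1 word both 156 bases before and 35 bases after it. Over the 71 members with a window, 19.7% held the NRF1 word, 29.6% the ETS word and 29.6% the YY1 word. These shares were 4.74%, 12.2% and 6.66% of the 27305 genes with a window, and 6.10%, 16.7% and 9.31% of the 15301 protein-coding ones. The YY1 word was in 15 of 33 windows of complex I and in 1 of 14 of complex V, and the ETS word in 5 of 33 and 6 of 14. A gene with several windows was counted as holding a word if any window did. A match is a description of the letters and not of binding.

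Of 15 listed regulators of the nuclear subunit genes or of mitochondrial transcription 14 were tested. None passed the test in edgeR. At an unadjusted p under 0.05 there were 4, against 24.5% of all genes, and DESeq2 called 2, against 10.1%. NRF1 was at 22.6 and 22.6 CPM in Ctrl and at 17.0 and 24.0 CPM in shSTAU1, with overlapping groups. GABPA, the DNA-binding part of GABP, was at 19.5 and 23.4 CPM in Ctrl and at 21.7 and 26.2 CPM in shSTAU1, also with overlap. YY1 was at 130 and 148 CPM in Ctrl and at 190 and 215 CPM in shSTAU1, without overlap (log2 fold change 0.54 ± 0.14 SE, edgeR adjusted p = 0.0731). TFB2M, a factor of mitochondrial transcription, had 0.79 (edgeR adjusted p = 0.0569). TFAM, which packs the mitochondrial genome and helps to start its transcription, had 0.41 (edgeR adjusted p = 0.167). TFB1M had -0.22, with both shSTAU1 libraries below both Ctrl libraries. POLRMT had -0.01 and PPARGC1B -0.29, both with overlapping groups. Of the tested regulators 10 had a log2 fold change above 0 and 4 below. The coactivator PPARGC1A had no read.

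Assembly factors build the complexes without staying in them. Of the 49 listed 44 were tested, 30 had a log2 fold change above 0, and the median was 0.25. In edgeR 2 were called and both were higher (2.60% of all genes were called, and 1.13% as higher). At an unadjusted p under 0.05 there were 11 of 44, against 24.5% of all genes. COX20, which helps to assemble a core subunit of complex IV, was at 11.6 and 15.5 CPM in Ctrl and at 27.5 and 39.0 CPM in shSTAU1 (log2 fold change 1.29 ± 0.23 SE, edgeR adjusted p = 0.0375). Of its exon bases 72.0% overlap another gene on either strand, and the strand setting is not given. NDUFAF4, a factor of complex I, was at 20.6 and 21.4 CPM in Ctrl and at 35.4 and 39.3 CPM in shSTAU1 (0.83 ± 0.16 SE, edgeR adjusted p = 0.0408). In neither did the groups overlap. Neither was called without Ctrl 1 or without Ctrl 2, and the difference between the list and the subunits was not tested.

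The partner subunits read from the mitochondrial genome showed no shared rise. Of 13 genes 9 had a log2 fold change below 0, with a median of -0.44, and for 11 of 13 the groups overlapped. Both shSTAU1 libraries lay above both Ctrl libraries for 1 gene (28.5% of all genes tested) and below them for 1 (28.0%). Their summed level was 768 and 414 CPM in Ctrl and 525 and 332 CPM in shSTAU1. The mitochondrial genome took 2.25% to 3.43% of the counts of a library, and its rRNA genes alone took 2.22% to 3.36%. Few counts were thus left for the protein genes, and the part of exon capture in their levels was not tested. Ctrl 1 stood high, and without it the median was 0.15. None was called in edgeR, 3 had an unadjusted p under 0.05 (24.5% of all genes), and DESeq2 called 1 (10.1% of all genes).

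Levels per length differed widely between subunits. In CPM per kilobase of exon, averaged over the 2 Ctrl libraries, the tested members had a median of 14.6, from 0.265 for NDUFA9 to 225 for ATP5F1B. NDUFS6 followed at 138, NDUFS5 at 109 and NDUFB9 at 104. By complex the highest were NDUFS6 in complex I, SDHB at 79.6 in complex II, UQCRH at 54.9 in complex III, COX6B1 at 84.0 in complex IV and ATP5F1B in complex V. NDUFS6, an accessory subunit, was at 190 and 210 CPM in Ctrl and at 196 and 274 CPM in shSTAU1, and its groups overlapped. The part of the capture probes in these levels was not tested, so they describe reads per length and not the number of transcripts.

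**Figure D4:**
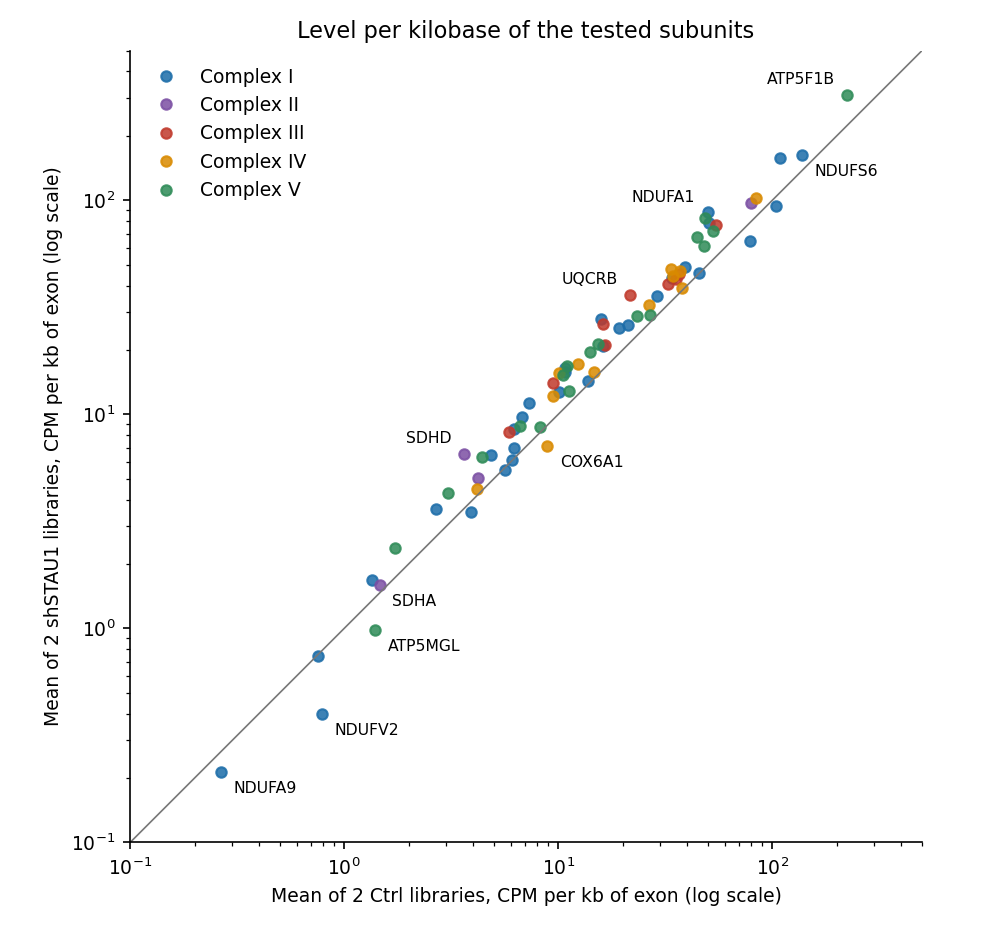
Mean level per kilobase of exon (CPM per kb, log scales) in the Ctrl libraries (x axis) and the shSTAU1 libraries (y axis) for tested subunits, coloured by complex, with the line of equality. Most points lie just above the line. The 3 members with the lowest levels in Ctrl, NDUFA9, NDUFA11 and NDUFV2, lie below it, NDUFA11 only slightly and NDUFV2 clearly.

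The 16 members that were not tested are accounted for as follows. In 9 of them no read was found, namely NDUFS1, NDUFA6, ATP5IF1, COX4I2, COX6A2, COX7A1, COX7B2, COX8C and the readthrough gene NDUFC2-KCTD14. No read was found for 4986 of the 19916 protein-coding genes of the table, and NDUFS1, NDUFA6 and ATP5IF1 are subunits that most cells use, so a value of 0 here says only that the gene is listed at 0. UQCR11 had 33 counts in all and NDUFA13 29, while NDUFA3, NDUFA7, COX6B2, NDUFA4L2 and the readthrough gene ATP5MF-PTCD1 had 2 to 5. Whether the capture probes cover these genes was not tested.

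The subunit transcripts are short. The longest annotated transcript had a median of 1584 bases over the tested members and 3358 over all genes tested, and the 3' untranslated region a median of 415 against 1418 bases. Fold changes followed length over all genes, with a median log2 fold change of 0.11 in the shortest of 5 equal bins and -0.089 in the longest. In the shortest bin stood 41 of the 75 members, with a median of 0.42 against 0.10 for the other genes of that bin, and in each bin the members' median was above that of the other genes. When the trend of counts with length and GC content was removed from every library, 57 of 75 members remained above 0, and the median fell to 0.17 over all members, 0.05 in complex I, 0.26 in complex II, 0.25 in complex III, 0.08 in complex IV and 0.28 in complex V. The correction left 1.97% of all genes called. UQCRB (0.78, edgeR adjusted p = 0.0455) was still called under this correction, and NDUFA1 (0.51), NDUFB1 (0.55) and ATP5ME (0.45) were not.

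**Figure D5:**
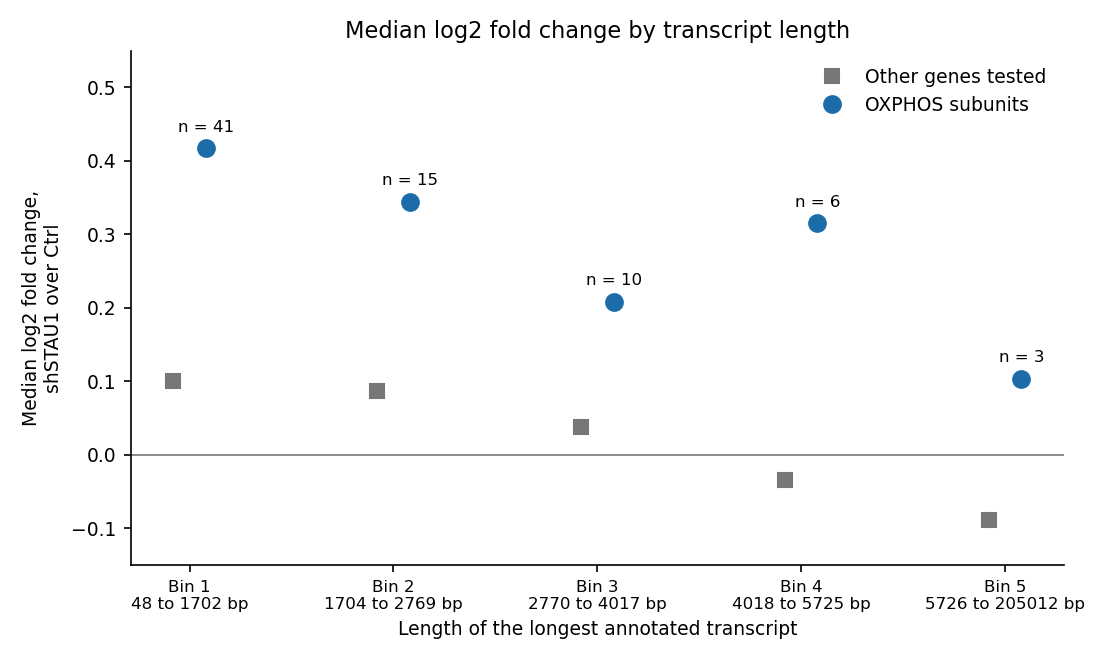
Median log2 fold change (shSTAU1 over Ctrl, y axis) by 5 equal bins of transcript length (x axis, in bp) for the OXPHOS subunits (circles, with their number) and the other genes tested (squares). The other genes fall from 0.10 to -0.09 with length, and the members lie above them in each bin, with 3 members in the longest.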

How the data were processed

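RNA sequencing of 2 Ctrl and 2 shSTAU1 libraries was analysed. The authors deposited counts of reads per gene as whole numbers without normalization, made from 1.0 ug of total RNA with an exon capture kit (TruSeq RNA Exome). The submitters' processing notes name Partek and hg38, and the aligner, counter, strand setting and annotation are not given in the sources used here. Of 67008 rows, 45 second copies of pseudoautosomal genes were left out. Types, positions and lengths came from GENCODE 29 on GRCh38, which covers 99.9% of the counts.

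The test was run with edgeR 4.0.16 in R 4.3.3 (filterByExpr, TMM, quasi-likelihood test, Benjamini-Hochberg adjustment over 14303 genes, threshold 0.05). The biological coefficient of variation was 19.1%. The libraries of a group differed beyond sampling noise (chi-square over its degrees of freedom 23.7 for Ctrl and 57.1 for shSTAU1). The fits were tested on simulated data. The members and lists were chosen with earlier results of these data known. The genes named by rule are the members past the threshold, the highest and lowest fold change and the highest level per kilobase of each complex, the core and catalytic members, the isoform pairs and STAU1. Further genes were picked once their values were known, and 1 member that the rule names is counted in the totals but not reported or plotted here. A member was marked as possibly sharing reads if another gene overlaps its exons on the same strand or a pseudogene has as many counts (28 members, 21 of them tested). Alternatives were DESeq2 1.42.0, library size only, no filter, limma-voom (limma 3.58.1), the replicate number as a block, removal of the trend with length and GC content (mgcv 1.9.3), other thresholds, the mitochondrial genome left out and each library left out. Leaving out the members that may share reads was chosen after seeing the data. Promoter words were searched in Python 3.11.15.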

Additional observations from a re-analysis of the deposited data

How the results depend on the processing

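The count of all genes called was 372 (161 higher, 211 lower), and 1449 (773, 676) with DESeq2, 404 (132, 272) with library size only, 282 (86, 196) with the length and GC correction, 11 without a filter on low counts, 1585 at an adjusted p under 0.10, 2098 by an unadjusted p under 0.05 and a 1.5-fold change, and 0 to 2780 when 1 library was left out. The count of subunits called was 5, and 17 with DESeq2, 0 without a filter (35 at an unadjusted p under 0.05), 2 with the length and GC correction, 18 and 14 under those other thresholds, and 0 to 33 when 1 library was left out. It was also 5 with library size only, limma-voom, the mitochondrial genome left out, and without members that may share reads. That mark counts overlap on the same strand only, and the strand setting is not given. On either strand, 61.6% of the exon bases of ATP5ME overlap another gene. This share was 44.5% for NDUFA1, 1.39% for UQCRB and 0% for NDUFB1. The count of assembly factors called was 2, and 7 with DESeq2, 0 without a filter, 1 with the length and GC correction, 7 and 9 under the other thresholds, and 0 to 11 when 1 library was left out. That of regulators was 0, and 2 with DESeq2, 2 and 1 under the other thresholds, and 0 to 3 when 1 library was left out. A fit that leaves out 1 library assumes that the lone library of its group varies like the other group.

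In the fit with a replicate block, 4087 genes, 41 subunits, 14 assembly factors and 4 regulators were called, and with the block and the length and GC correction 3670, 20, 13 and 5. Deviations of same-numbered libraries from their group means correlated at 0.27 over all genes, 0.59 over the 4791 genes above a log2 CPM of 5 and 0.10 over the 75 subunits. No source says that a number marks a shared batch and there are only 2 pairs, so the numbers were not taken to pair the libraries, and whether they do was not settled.

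The median log2 fold change stayed above 0 for every complex under each alternative, and 57 to 67 of the 75 subunits had a value above 0. With the length and GC correction, without and with the block, the median was 0.17 and 0.17 over all subunits, 0.050 and 0.050 in complex I, 0.25 and 0.25 in III, 0.080 and 0.080 in IV, and 0.28 and 0.28 in V. Complex IV was at 0.26 with library size only, and at 0.29 both without members that may share reads and with NDUFA4 counted in complex I. When 1 library was left out, the medians ran from 0.26 to 0.44 over all subunits, 0.18 to 0.44 in I, 0.20 to 0.35 in II, 0.37 to 0.56 in III, 0.30 to 0.35 in IV, 0.36 to 0.50 in V, and -0.83 to 0.15 in the mitochondrial genome. The log2 fold change of STAU1 was -2.64 to -2.58 over all alternatives, and -2.60 to -2.58 when 1 library was left out. Without Ctrl 1 STAU1 lost its call, as did all genes. The median level per kilobase was 19.9 on the longest transcript.

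Among the single subunits named by rule the sign turned for COX5B (-0.010 with library size only, -0.27 with the length and GC correction without and with the block, and -0.017 to 0.10 when 1 library was left out), COX6B1 (-0.031 and -0.031 with that correction), COX7A2 (-0.035 and -0.038), NDUFS6 (-0.039 and -0.050, and -0.036 to 0.47 when 1 library was left out) and NDUFV1 (-0.042 with library size only, -0.073 and -0.073, and -0.037 to 0.061 when 1 library was left out). Among members not named by rule, ATP5MC2 (-0.061), NDUFAB1 (-0.023) and NDUFC1 (-0.085) also turned with that correction without the block. Of the other results for named subunits, 336 kept their side of the threshold, 18 lost a call and 38 gained one. The cause was not tested.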
